A study of Mus musculus with 6 samples.

Results

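The tubulin tyrosine ligase (TTL) and TTL-like (TTLL) enzymes are the 9 genes described here, of 17441 genes measured by RNA-seq in 6 mouse livers. They are Ttl, Ttll1, Ttll3, Ttll4, Ttll5, Ttll7, Ttll8, Ttll11 and Ttll12. The family was chosen by measured values of these same libraries, since Ttll8 stood among the largest rises between the groups. The differences between groups given for these 9 genes are therefore a description and carry no test of their own. The 3 livers labelled iKO came from mice with a tamoxifen-inducible, whole-body Nek7 knockout, and the 3 livers labelled WT came from wild-type mice. Both groups had received tamoxifen 10 days earlier, and neither the driver of the recombination nor the age of the mice is stated in the labels. Nothing in the labels says that the livers came from separate litters or days, so p-values measure the spread between these samples.

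TTL and most TTLL enzymes add amino acids to tubulin, mostly on the tails that face outward from the microtubule. TTL restores the last tyrosine of alpha-tubulin, the glutamylases add glutamate side chains, and the glycylases add glycine side chains, which are best known from the axonemes of cilia and flagella. Glycylation and glutamylation compete for neighbouring sites on the same tails, and these marks tune motors, severing enzymes and the stability of cilia. In liver, primary cilia are carried mainly by bile duct cells, while hepatocytes hold large microtubule networks that serve secretion.

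Library totals lay between 18139500 and 19912000 expected counts. Hepatocyte markers summed to between 101000 and 111000 CPM (counts scaled to a common library total with TMM factors) in livers labelled iKO and between 102000 and 116000 CPM in WT livers, which matches the labelled tissue. Alb made up most of these sums, with means of 74100 CPM in livers labelled iKO and 83800 CPM in WT livers. Of the 7 tested hepatocyte markers edgeR called 1 (14.3%, beside 15.4% of all tested genes). This was Hnf4a, higher in livers labelled iKO (log2 fold change 0.79, SE 0.22, edgeR adjusted p = 0.0414). Nek7, the targeted gene, stood at 50.2, 32.8 and 31.0 CPM in livers labelled iKO, against 55.5, 40.5 and 36.4 CPM in WT livers (log2 fold change -0.22, SE 0.23, edgeR adjusted p = 0.541). The groups overlapped for Nek7 in CPM. In TPM, which uses no TMM factors, they did not, at 13.75, 13.11 and 13.04 TPM in livers labelled iKO against 21.31, 20.4 and 15.68 TPM in WT livers. The gene total does not show whether a deleted exon is missing, so the libraries are called by their labels. The 4 libraries iKO 1, iKO 2, iKO 3 and WT 1 held Y-linked reads (573 to 1113 expected counts of Ddx3y and Kdm5d together), whereas WT 2 and WT 3 held 0. For Nek7, the tested members and the genes called here other than cell markers, results are also given for the 4 libraries with Y-linked reads. For most other genes they are not. In those 4 libraries the log2 fold change of Nek7 was -0.53. There WT 1 is the single WT liver, the spread comes from the 3 livers labelled iKO alone, and WT 1 is assumed to vary as they do.

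The promoters are shown for Ttll8 and Ttll4, which had the largest positive log2 fold changes of the members that entered the fit. They are the 250 bases before the annotated start of transcription, from RefSeq on build GRCm38.p6. This is not the mm9 build named for the deposited values. Ttll8 lies on the minus strand at chr15:88954419-88954668 and Ttll4 on the plus strand at chr1:74661452-74661701. Capitals mark an inverted repeat, searched on both strands as GTTNCC and GNAAC with 3 or 4 bases between them.
Ttll8: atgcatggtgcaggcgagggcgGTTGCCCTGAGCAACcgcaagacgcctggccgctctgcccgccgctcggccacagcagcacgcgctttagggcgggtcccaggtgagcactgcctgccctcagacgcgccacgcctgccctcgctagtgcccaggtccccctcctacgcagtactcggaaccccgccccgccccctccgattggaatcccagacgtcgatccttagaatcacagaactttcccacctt
Ttll4: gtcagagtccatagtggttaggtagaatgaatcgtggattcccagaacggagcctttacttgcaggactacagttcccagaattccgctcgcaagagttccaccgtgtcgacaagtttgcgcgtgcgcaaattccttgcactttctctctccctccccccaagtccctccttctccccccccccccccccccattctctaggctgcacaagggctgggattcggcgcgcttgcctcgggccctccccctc
The repeat has the form of an X-box, the element bound by RFX factors at many genes of cilia, and its letters were chosen after the Ttll8 promoter had been read. It occurred in 0.971% of the 32851 RefSeq promoters of 300 bases and in the Ttll8 promoter alone among the 8 promoters found for 7 of the 9 members. The looser X-box consensus, which overlaps this repeat at Ttll8, occurred in 34.7% of all promoters, and among the members in those of Ttll3, Ttll5, Ttll8 and Ttll12. None of the 8 promoters held the E-box CACGTG (7.15% of all promoters), the D-box TTATGTAA (0.938%) or the ROR element AGGTCA (16.3%), again on both strands. Ttll1 and Ttll11 were not matched. GC content ran from 46.3% at a Ttll3 promoter to 70% at Ttl, with 65% at Ttll8 and 59.7% at Ttll4.

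Ttll8 encodes a glycylase that places the first glycine of a side chain, best known from axonemes. It gave 130, 119 and 71 expected counts in livers labelled iKO, against 8, 0 and 4 in WT livers. All 3 livers labelled iKO lay above all 3 WT livers, and the lowest of them held more reads than the WT livers together. On the normalized scale these were 8.66, 6.38 and 3.68 CPM in livers labelled iKO and 0.425, 0 and 0.193 CPM in WT livers. The 0 of WT 2 allows up to 0.133 CPM (3 counts, counting error only). The means were 6.24 ± 2.49 CPM in livers labelled iKO and 0.206 ± 0.213 CPM in WT livers (SD, n = 3 each), a ratio of 30.3, and the fitted log2 fold change was 4.94 (SE 0.69). Ttll8 entered the fit through its level in the livers labelled iKO, so a large difference was a condition of its being tested. In the 4 libraries that held Y-linked reads the log2 fold change was 3.86 (SE 0.69), and in a model of all 6 with Y-linked reads as a covariate it was 3.85 (SE 0.87), where Ttll8 no longer passed adjusted p 0.05. All Ttll8 counts were whole. Its exons overlap those of AC117700.1, a transcript on the same strand in GENCODE M21.

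Ttll3, the other initiating glycylase of the 9 genes, did not share this pattern. It stood at 0.999, 1.22 and 2.25 CPM in livers labelled iKO, against 0.718, 1.6 and 0.977 CPM in WT livers. The groups overlapped, with iKO 3 the highest library and WT 1 the lowest, and the log2 fold change was 0.43 (SE 0.44). That value fell to 0.03 without iKO 3 and was 1.01 (SE 0.70) in the 4 libraries with Y-linked reads. Ttll3 shares exon sequence with Arpc4, and in 5 libraries its expected counts held fractions, so its level is less certain. In TPM, which is scaled by length, Ttll8 made up 88.0%, 79.6% and 51.8% of the Ttll3 and Ttll8 sum in livers labelled iKO. In WT livers its share was 31.7%, 0% and 11%. By these values the glycylase with more transcripts was Ttll8 in each liver labelled iKO and Ttll3 in each WT liver. In iKO 3 they lay close, at 1.71 TPM for Ttll8 and 1.59 TPM for Ttll3. In WT 1 the order rests on 8 and 13.52 expected counts.

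**Figure D1:**
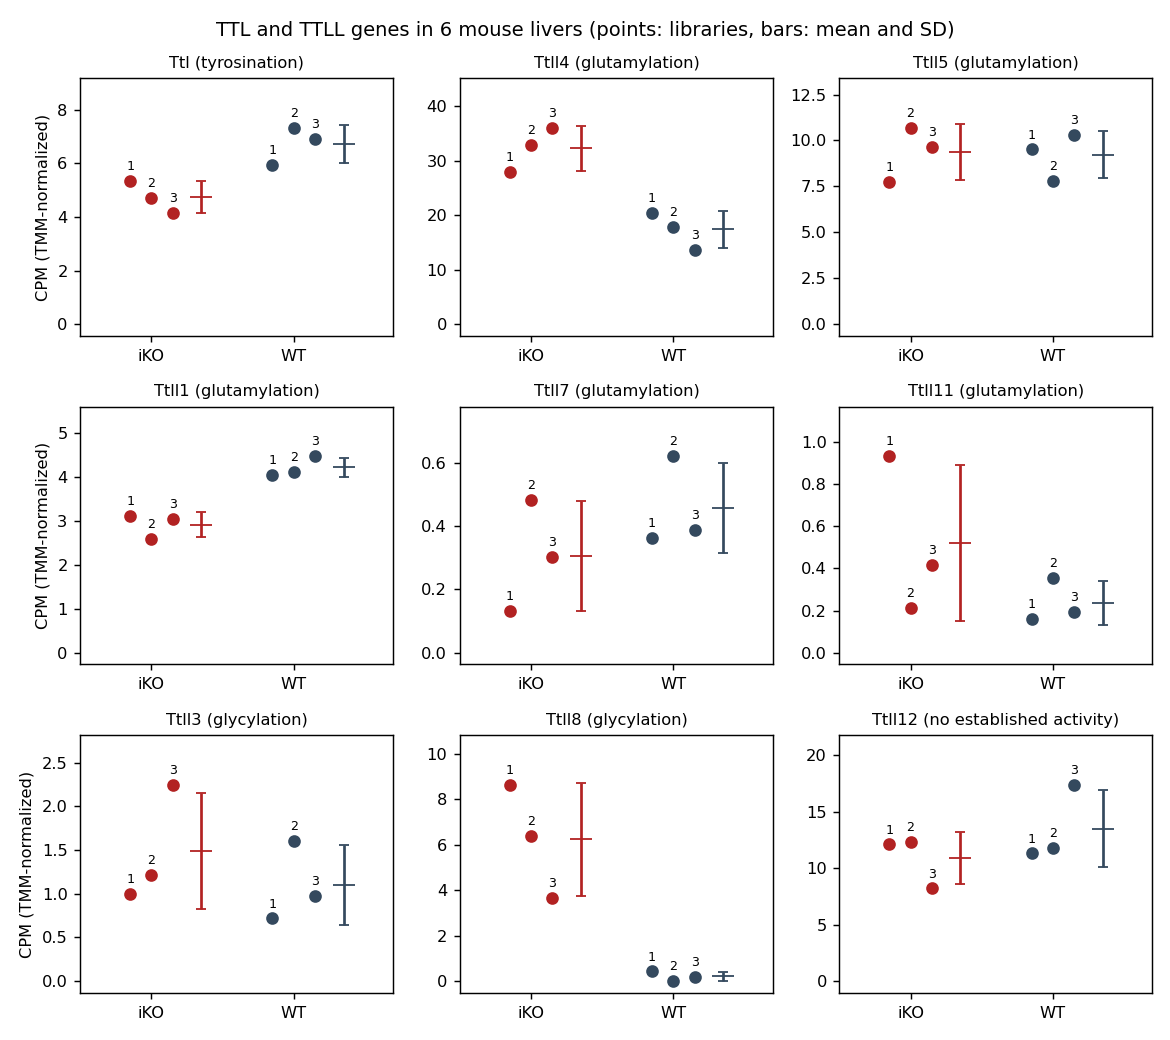
TMM-normalized CPM (vertical axes, starting near 0, scaled per gene) of the 9 genes in the 3 libraries labelled iKO (red, left) and the 3 WT libraries (dark blue, right), with replicate numbers and mean ± SD bars. Ttll8 and Ttll4 lie higher in all 3 livers labelled iKO, Ttl and Ttll1 lie lower, and the groups overlap for the other 5 genes.

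Ttll4 is a glutamylase that starts side chains, known also to glutamylate nucleosome assembly proteins. It stood at 27.9, 32.9 and 36.1 CPM in livers labelled iKO, against 20.5, 17.8 and 13.7 CPM in WT livers. The groups did not overlap in CPM, and the means were 32.3 ± 4.13 CPM in livers labelled iKO and 17.4 ± 3.41 CPM in WT livers (SD, n = 3 each). The ratio of means was 1.86 and the log2 fold change 0.90 (SE 0.19). In TPM, which uses no TMM factors, the groups did overlap, at 3.93, 6.79 and 7.69 TPM in livers labelled iKO and 4.14, 4.73 and 3.12 TPM in WT livers. Ttll4 also had the longest transcript of the members, at an effective 8039 bases (longer than 96.1% of tested genes). Over 12995 genes, whose values are not independent, longer transcripts tended to lower log2 fold changes (Spearman's rho -0.35), the direction opposite to that of Ttll4. A correction for length put the log2 fold change of Ttll4 at 1.19 and that of Ttll8 at 5.13. It put Ttl at -0.27, Ttll1 at -0.58, Ttll3 at 0.48, Ttll5 at 0.21 and Ttll12 at -0.13. In the 4 libraries with Y-linked reads it was 0.67 (SE 0.29).

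The other glutamylases showed smaller differences or few reads. Ttll5, which is also known as a coregulator of steroid receptors, stood at 7.73, 10.7 and 9.65 CPM in livers labelled iKO and 9.51, 7.81 and 10.3 CPM in WT livers. These groups overlapped throughout, with a log2 fold change of 0.03 (SE 0.20), or -0.01 in the 4 libraries with Y-linked reads. Ttll1, the catalytic subunit of the tubulin polyglutamylase complex, stood at 3.10, 2.58 and 3.04 CPM in livers labelled iKO and 4.05, 4.11 and 4.47 CPM in WT livers. The groups did not overlap, and the ratio of means was 0.691, with a log2 fold change of -0.53 (SE 0.24) and -0.46 (SE 0.44) in the 4 libraries with Y-linked reads. Ttll1 had fractional expected counts in each of the 6 libraries, a sign of reads assigned in part to more than 1 gene.

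Ttll7, known as a neuronal beta-tubulin glutamylase, gave 2, 9 and 5.83 expected counts in livers labelled iKO and 6.82, 14 and 8 in WT livers. Ttll11, a glutamylase that lengthens side chains, gave 14, 4 and 8 expected counts in livers labelled iKO and 3, 8 and 4 in WT livers. Both genes were too low to enter the fit, and their groups overlapped. Fitted without the filter on low counts, the log2 fold change was -0.54 (SE 0.59) for Ttll7 and 1.06 (SE 0.67) for Ttll11.

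Ttl itself, the enzyme that puts tyrosine back on alpha-tubulin, stood at 5.33, 4.72 and 4.15 CPM in livers labelled iKO, against 5.95, 7.33 and 6.91 CPM in WT livers. The groups did not overlap. The ratio of means was 0.703 and the log2 fold change -0.51 (SE 0.21), or -0.32 (SE 0.38) in the 4 libraries with Y-linked reads and -0.27 (SE 0.22) with the correction for length. Ttll12, a family member without an established ligase activity, stood at 12.1, 12.3 and 8.20 CPM in livers labelled iKO and 11.3, 11.8 and 17.4 CPM in WT livers. Its groups overlapped, WT 3 being high and iKO 3 low, and the log2 fold change was -0.32 (SE 0.23), or -0.05 (SE 0.33) in the 4 libraries with Y-linked reads.

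Of the 7 members that entered the fit, 2 (Ttll8 and Ttll4) passed an adjusted p of 0.05 in edgeR, both higher in livers labelled iKO. Of all 13160 tested genes 15.4% passed it in either direction, 7.31% higher and 8.07% lower. The CPM of the groups did not overlap for 4 of the 7, 2 higher and 2 lower, against 39.0% of all tested genes (19.8% higher and 19.2% lower). The median log2 fold change of the 7 was 0.03, and that of all tested genes was -0.02. Nothing is read from these counts, since this contrast chose the family. The call of Ttll4 ended without iKO 3, without WT 2, with a term for Y-linked reads, in the 4 libraries with Y-linked reads, and on log2(FPKM + 1) and log2(FPKM + 0.1).

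**Figure D2:**
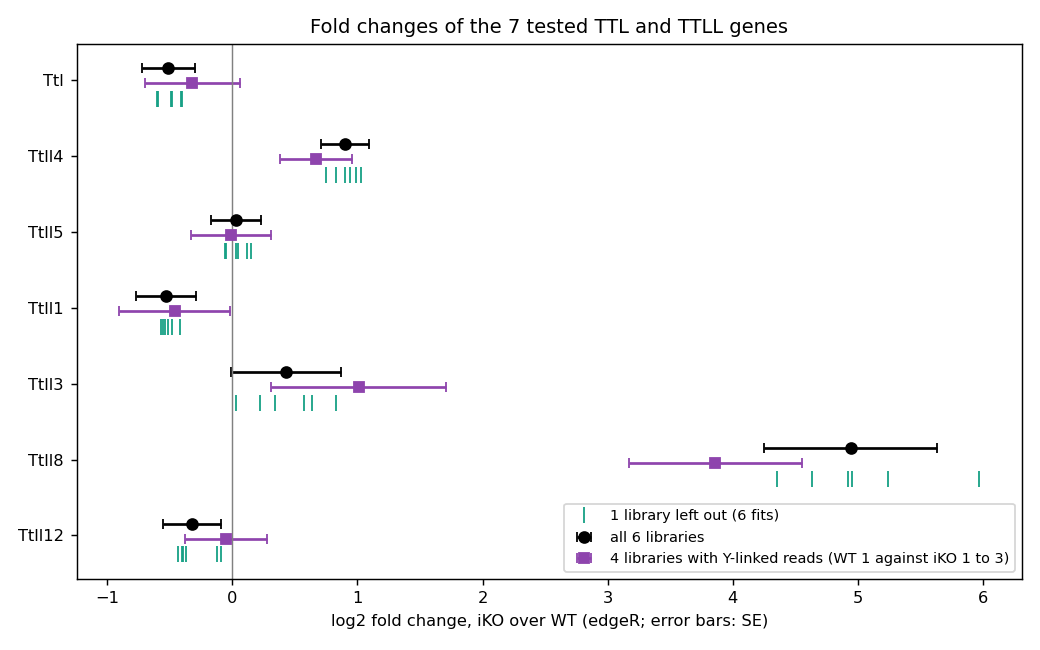
log2 fold changes of the 7 tested members, livers labelled iKO over WT livers (horizontal axis, error bars are SE), in all 6 libraries (black), in the 4 libraries with Y-linked reads (purple) and with 1 library left out at a time (green ticks). Ttll8 lies between 3.86 and 5.97 in these fits, Ttll4 between 0.67 and 1.03, and Ttll5 on both sides of 0.

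By abundance, members were compared in TPM. In livers labelled iKO the order of mean TPM was Ttll4 (6.14 ± 1.96), Ttll12 (4.32 ± 1.04), Ttll5 (3.94 ± 1.26), Ttll8 (2.40 ± 0.607), Ttll1 (2.13 ± 0.443), Ttl (1.55 ± 0.207), Ttll3 (0.893 ± 0.631), Ttll11 (0.213 ± 0.105) and Ttll7 (0.0667 ± 0.0451; SD, n = 3). Among these neighbours, Ttll3 and Ttll11 alone did not overlap in range. In WT livers the order was Ttll12 (6.76 ± 1.82), Ttll5 (4.09 ± 0.425), Ttll4 (4.00 ± 0.815), Ttll1 (3.69 ± 0.684), Ttl (2.81 ± 0.670), Ttll3 (0.8 ± 0.41), Ttll11 (0.14 ± 0.0794), Ttll7 (0.120 ± 0.0529) and Ttll8 (0.0967 ± 0.1; SD, n = 3). Here Ttll12 lay above Ttll5, Ttl above Ttll3 and Ttll3 above Ttll11 without overlap in range, and the other neighbours overlapped. Ttll8 was the 4th of the 9 in livers labelled iKO and the 9th in WT livers. In WT livers its mean lay above 15.4% of the genes in the table, and in livers labelled iKO above 46.8%.

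The summed TPM of the 9 genes was 16.5, 24.5 and 23.9 in livers labelled iKO and 18.6, 24.9 and 24.0 in WT livers, so the groups overlapped in the total. Within it the glycylases took 18.2%, 14.6% and 13.8% in livers labelled iKO and 3.39%, 4.98% and 3.41% in WT livers. Of the glycylases, Ttll8, by which the family was chosen, separated the groups in TPM. Ttll3 overlapped, at 0.36, 0.73 and 1.59 TPM in livers labelled iKO and 0.43, 1.24 and 0.73 TPM in WT livers. The level of Ttll8 is also part of the total on which the shares below rest. The share of Ttl was 8.07%, 7.09% and 6.61% in livers labelled iKO and 11.5%, 14.0% and 11.7% in WT livers. The 5 glutamylases together took 51.5%, 55.8% and 63.8% in livers labelled iKO and 58.5%, 53.9% and 49.3% in WT livers, with overlap. Ttll12 took 22.2%, 22.5% and 15.8% in livers labelled iKO and 26.5%, 27.2% and 35.7% in WT livers.

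**Figure D3:**
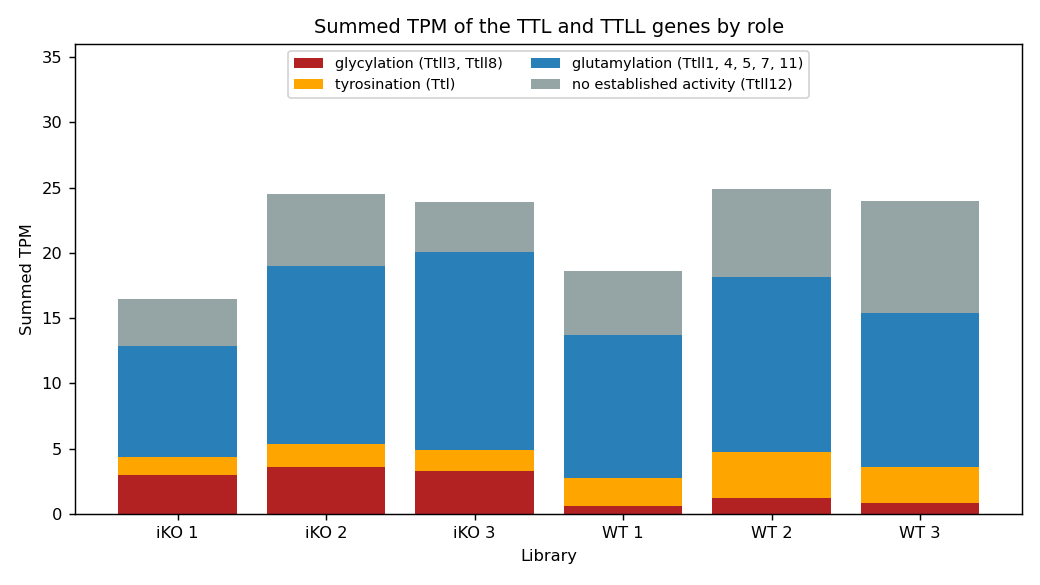
Summed TPM (vertical axis, from 0) of the 9 genes in each library, stacked by role, with the libraries labelled iKO left of the WT libraries. The glycylase layer at the bottom is 3.00 to 3.58 TPM in livers labelled iKO and 0.63 to 1.24 TPM in WT livers, while the totals overlap. Within that layer Ttll8 separates the groups and Ttll3 does not.

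What the members share beyond the family name was read from the cellular component terms of the authors' deposited table. The microtubule term was given to 8, all but Ttll12, which carries the term for the microtubule organizing center. The cilium term was given to 7 and the ciliary basal body term to 5. The axoneme term was given to 2, the glycylases Ttll3 and Ttll8. Ttll1, Ttll8 and Ttll12 lie on chromosome 15, and Ttl and Ttll11 on chromosome 2.

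The genes next to Ttll8 were examined, the 3 protein-coding genes on either side in the RefSeq gene order. Its direct neighbour Pim3, a serine/threonine kinase gene, rose, at 308, 205 and 101 CPM in livers labelled iKO against 45.5, 25.9 and 30.2 CPM in WT livers (log2 fold change 2.59, SE 0.42, edgeR adjusted p = 0.00848). All livers labelled iKO lay above all WT livers, and within the livers labelled iKO the order of the libraries was that of Ttll8. The call ended in the 4 libraries with Y-linked reads (log2 fold change 2.19, adjusted p = 0.229) and in the model with Y-linked reads as a covariate (2.17, adjusted p = 0.147). Creld2, a chaperone-related gene of the endoplasmic reticulum, stood at 69.4, 32.0 and 51.4 CPM in livers labelled iKO and 25.4, 11.4 and 39.4 CPM in WT livers, with overlap (log2 fold change 1.00, SE 0.48, adjusted p = 0.201). Gm33049, which lies between them, held at most 3.11 expected counts. On the other side Mlc1 was at 0 counts in all 6 libraries and Panx2 at no more than 11, and Mov10l1 was not analysed here. Pim3 lies on the plus strand and Ttll8 on the minus strand, with ends facing each other and no shared exon in GENCODE M21. The sources used here do not give whether the counting used strand, and a part of Pim3 transcripts in the Ttll8 counts was not tested.

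**Figure D4:**
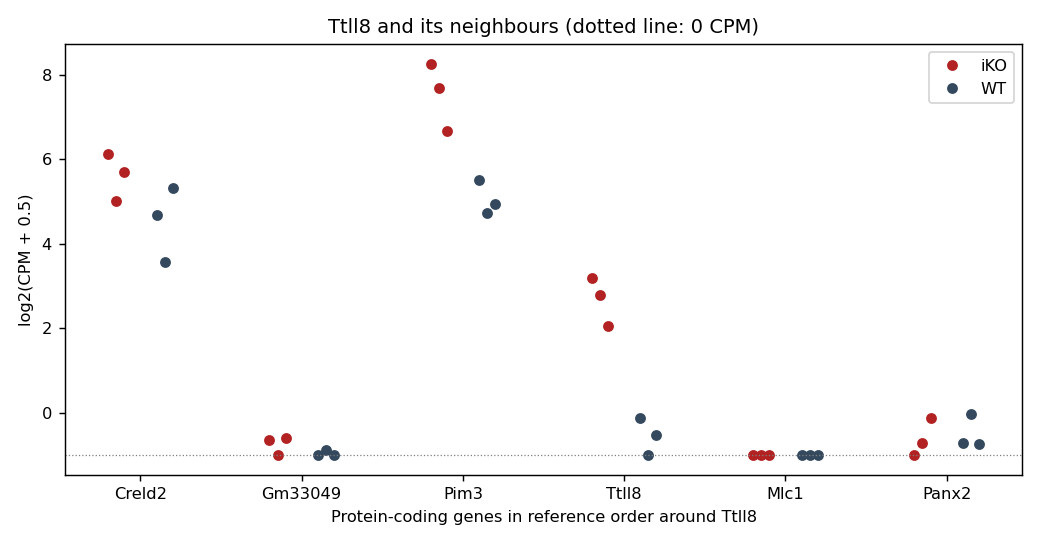
log2(CPM + 0.5) (vertical axis) of Ttll8 and its neighbouring protein-coding genes in reference order, 1 point per library, livers labelled iKO in red left of WT livers in dark blue. Pim3 and Ttll8 separate the groups, Creld2 does not, and Mlc1 lies on the dotted line of 0 CPM.

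The genes whose profile was most like that of Ttll8 were Psmg4, Plk3, Zfp623, Hip1r and Cebpb, with Pearson correlations of log2(CPM + 0.5) between 0.9970 and 0.9977 over the 6 libraries. These libraries share the contrast that separates the groups, and the values are a description. Likeness to Ttll8 favours genes that separate the groups. The fold changes and calls of these 5 genes are therefore a description too and carry no test of their own. Plk3, a polo-like kinase gene, stood at 409, 246 and 128 CPM in livers labelled iKO and 19.9, 11.6 and 17.3 CPM in WT livers. Cebpb, a hepatic transcription factor gene, stood at 441, 321 and 233 CPM in livers labelled iKO and 96.5, 70.8 and 81.3 CPM in WT livers. Log2 fold changes of the 5 genes ran from 0.66 (Psmg4, a proteasome assembly factor, adjusted p = 0.0573) to 4.01 (Plk3, edgeR adjusted p = 0.00234). With the correction for length Psmg4 stood at 0.04 (edgeR adjusted p = 0.92). Zfp623, Hip1r, Cebpb and Plk3 passed the threshold, and none of the 4 passed it in either fit that takes account of Y-linked reads.

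Around the family, 101 genes of the tubulin code and its substrates were listed, of which 94 were in the table and 75 entered the fit. Of these 5 rose and 4 fell in livers labelled iKO, together 12% of the 75, beside 15.4% of all tested genes. The median log2 fold change of the 75 was -0.09, against -0.02 for all tested genes. Among the other TTLL genes, Ttll10, which lengthens glycine chains, stood at 0.666, 0.268 and 0.674 CPM in livers labelled iKO and 0.584, 1.02 and 0.435 CPM in WT livers. Ttll13, a glutamylase, stood at 0.333, 0.536 and 0.622 CPM in livers labelled iKO and 1.01, 0.844 and 1.16 CPM in WT livers (log2 fold change -0.98, SE 0.41, edgeR adjusted p = 0.126). Ttll2, Ttll6 and Ttll9 gave at most 4.15 expected counts in any library.

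Of the 4 tested partners of Ttll1, 1 rose (25.0%, beside 15.4% of all tested genes called in either direction) and 3 did not pass the test. Tpgs1, a subunit of the polyglutamylase complex, rose, at 25.1, 16.8 and 17.6 CPM in livers labelled iKO against 12.1, 12.2 and 12.2 CPM in WT livers (log2 fold change 0.70, SE 0.19, edgeR adjusted p = 0.0346). The groups did not overlap, with iKO 1 the highest. Nicn1, another subunit, stood at 11.8, 15.5 and 12.6 CPM in livers labelled iKO and 17.8, 19.0 and 18.1 CPM in WT livers (log2 fold change -0.46, SE 0.16, adjusted p = 0.0803). Tpgs2 had a log2 fold change of 0.01 (SE 0.19), and Lrrc49, at no more than 13 expected counts in a library, one of -0.13 (SE 0.46).

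Of the enzymes that remove or oppose these marks, 0 of 3 tested deglutamylases (Agtpbp1, Agbl3 and Agbl5) passed the edgeR test, beside 15.4% of all tested genes. For these 3, 0 had an unadjusted p under 0.05, and DESeq2 called 0. Their log2 fold changes lay between -0.19 and -0.13. Of the detyrosinating pair, the peptidase gene Vash1 stood at 2.10, 1.71 and 3.06 CPM in livers labelled iKO and 2.82, 3.61 and 4.58 CPM in WT livers (log2 fold change -0.67, SE 0.32, edgeR adjusted p = 0.178). Its chaperone Svbp had a log2 fold change of 0.30 (SE 0.24). For acetylation, the acetyltransferase gene Atat1 had a log2 fold change of -0.06 (SE 0.18), the deacetylase gene Hdac6 -0.18 (SE 0.16) and the deacetylase gene Sirt2 0.58 (SE 0.20; adjusted p = 0.0789).

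Among the substrates, 2 of 13 tested tubulin genes fell and 0 rose, which is 15.4% of them, the same share as over all tested genes. Tubb2a, a beta-tubulin, stood at 45.3, 27.4 and 31.3 CPM in livers labelled iKO against 166, 174 and 271 CPM in WT livers (log2 fold change -2.56, SE 0.27, edgeR adjusted p = 0.000846). The groups lay far apart, and the value was -2.24 in the 4 libraries with Y-linked reads. Tuba4a, the alpha-tubulin encoded without the final tyrosine that TTL restores, stood at 134, 93.9 and 124 CPM in livers labelled iKO against 195, 224 and 282 CPM in WT livers (log2 fold change -0.99, SE 0.22, adjusted p = 0.0179). Tuba8, an alpha-tubulin, stood at 3.46, 8.74 and 15.4 CPM in livers labelled iKO and 2.18, 3.51 and 3.43 CPM in WT livers, with overlap (log2 fold change 1.6, SE 0.49, adjusted p = 0.0617). Expected counts of Tubb2a and Tuba4a were not whole in all 6 libraries, and near-identical tubulin genes can share reads, so these levels are less certain.

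Of 14 tested tubulin folding genes, 3 passed the edgeR test (21.4%, beside 15.4% of all tested genes). The prefoldin genes Pfdn2 and Pfdn6 rose (log2 fold changes 0.60, SE 0.17, edgeR adjusted p = 0.0432, and 0.94, SE 0.23, edgeR adjusted p = 0.0286). Tbcel, which takes tubulin dimers apart, fell (-0.61, SE 0.14, edgeR adjusted p = 0.0229). Tbcel stood at 38.5, 40.9 and 39.3 CPM in livers labelled iKO, against 64.2, 59.1 and 57.4 CPM in WT livers, with little spread within a group. Of 12 tested severing enzymes and plus-end readers, 1 passed the edgeR test (8.33%). This was the end-binding gene Mapre3, which rose, at 78.5, 58.5 and 57.5 CPM in livers labelled iKO against 43.9, 30.0 and 36.5 CPM in WT livers (edgeR adjusted p = 0.0254). For Clip1, a reader of tyrosinated tubulin, the fitted difference was 0.43 on the log2 scale (SE 0.15, adjusted p = 0.0841), and for Spast, a severing enzyme that glutamylation stimulates, it was -0.17 (SE 0.17).

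Of 22 tested genes of cilia and axonemes, where the glycylases act, 2 passed the edgeR test (9.09%, beside 15.4% of all tested genes). Ift20, an intraflagellar transport gene, rose (log2 fold change 0.50, SE 0.15, edgeR adjusted p = 0.0450). Arl13b, a GTPase of the ciliary membrane, fell (-0.84, SE 0.23, edgeR adjusted p = 0.0376). The median of the 22 was 0.09. Foxj1, the regulator of motile cilia, stood at 2.86, 4.72 and 11.3 CPM in livers labelled iKO and 2.02, 4.48 and 3.58 CPM in WT livers, with overlap (adjusted p = 0.248).

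**Figure D5:**
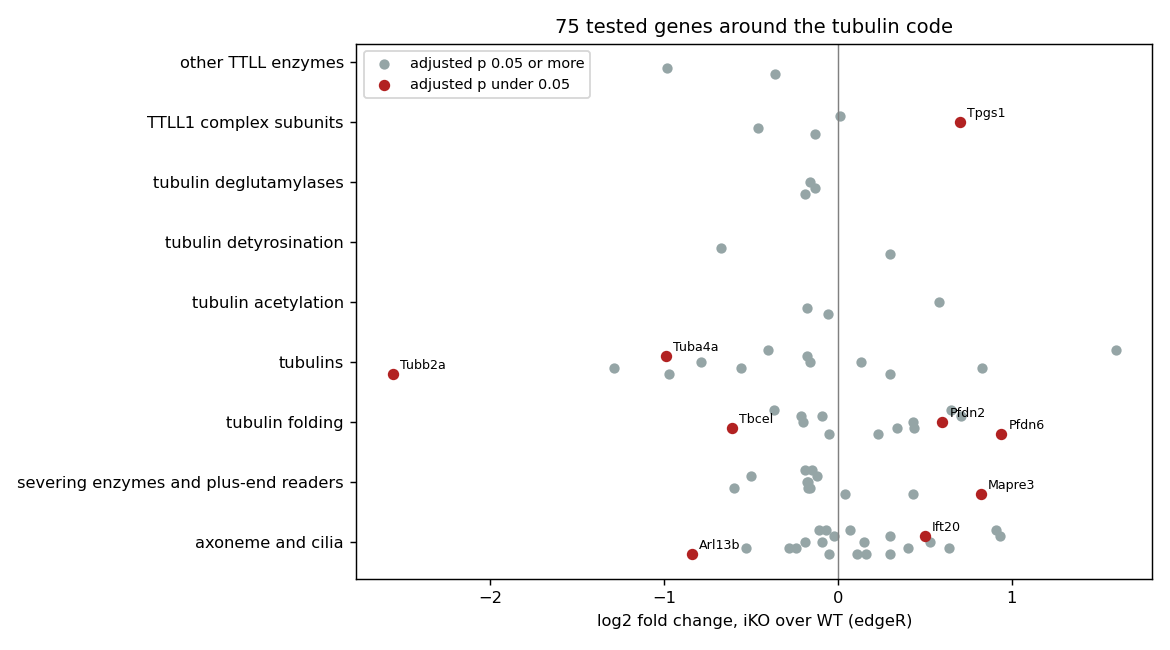
log2 fold changes, livers labelled iKO over WT livers (horizontal axis), of the 75 tested genes around the tubulin code, 1 point per gene and 1 row per list, with genes at adjusted p under 0.05 in red and named. Tubb2a at -2.56 lies farthest from 0, and the 3 tested deglutamylases lie between -0.19 and -0.13.

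Of the 9 genes named in this list as risen or fallen, 8 lost the call in at least 1 of the 6 fits that left out a library, and for these 8 the largest adjusted p came without WT 2. It was 0.124 for Tpgs1, 0.0666 for Tuba4a, 0.117 for Tbcel, 0.162 for Pfdn2, 0.113 for Pfdn6, 0.120 for Mapre3, 0.202 for Ift20 and 0.182 for Arl13b. Each of the 8 calls ended on leaving out any 1 of several libraries, namely WT 2 or WT 3 for Mapre3, these and iKO 2 and iKO 3 for Tuba4a, these and iKO 1 and iKO 3 for Arl13b, all 6 for Ift20, all but iKO 2 for Tpgs1 and Pfdn2, all but iKO 1 for Tbcel, and all but iKO 2 and WT 3 for Pfdn6. Both fits that take account of Y-linked reads ended these 8 calls as well, and the correction for length ended those of Tpgs1, Tbcel, Pfdn2, Pfdn6, Ift20 and Arl13b. Tubb2a alone passed in all 17 alternatives.

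Markers of other liver cells differed between the groups as well. In bulk tissue fewer cells of a type and less RNA per cell cannot be told apart. For comparison, edgeR called 8.07% of all tested genes lower in livers labelled iKO and 7.31% higher. The 9 stellate cell markers summed to 150 to 181 CPM in livers labelled iKO and 306 to 512 CPM in WT livers, and 6 fell. The 8 Kupffer cell markers summed to 205 to 269 CPM in livers labelled iKO and 321 to 584 CPM in WT livers, and 6 fell. The 8 sinusoidal endothelial markers summed to 69.9 to 145 CPM in livers labelled iKO and 158 to 254 CPM in WT livers, and 3 fell. Of 7 neutrophil markers, at 10.4 to 31.5 CPM in livers labelled iKO and 25.7 to 119 CPM in WT livers, 5 fell. In each of these lists WT 1, the WT liver with Y-linked reads, held the lowest WT sum (306, 321, 158 and 25.7 CPM). For neutrophil markers it lay within the range of the livers labelled iKO. Marker calls are not given for the 4 libraries with Y-linked reads or with a library left out. The 9 markers of cholangiocytes, the ciliated cells of the bile ducts, summed to 101 to 469 CPM in livers labelled iKO and 174 to 278 CPM in WT livers, with 1 lower, Pkhd1. The 8 lymphocyte markers, 7 of them tested (at 7.08 to 11 CPM in livers labelled iKO and 6.84 to 11.7 CPM in WT livers) had 0 calls by edgeR, 0 at an unadjusted p under 0.05 and 0 by DESeq2. No marker was at 0 in all 6 libraries, and the part of these cells in the differences of the TTLL and tubulin genes was not tested.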

How the data were processed

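RNA-seq values of 6 mouse livers, 3 labelled iKO and 3 WT, were used. The submitters' processing notes name RSEM 1.2.12, Bowtie2 2.2.5, HISAT2 2.0.4 and build mm9. The authors deposited 1 table with expected counts per gene, unnormalized. Beside them the authors gave FPKM (per length and library size) and TPM (per length, with a fixed sum).

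After rounding, expected counts went into edgeR 4.0.16 under R 4.3.3. Low genes were removed by filterByExpr, TMM factors ran from 0.78 (iKO 1) to 1.18 (WT 2), and p-values of the robust quasi-likelihood test were adjusted by Benjamini-Hochberg over 13160 genes, with a threshold of 0.05. Dividing a log2 fold change by the root of its F gave its SE. limma 3.58.1 and DESeq2 1.42.0 served as alternatives. The fit was tested on simulated counts without differences tied to Y-linked reads or length, so that test does not cover those. Members, gene lists and alternatives were chosen with earlier results of these data known. Named were all members, Nek7, called listed genes, partner or opposing enzymes, the 3 protein-coding neighbours on each side of Ttll8 and the 5 genes (mean of at least 1 CPM) correlating best with it. Further listed genes (Ttll13, Tuba8, Sirt2, Clip1, Spast, Foxj1) were chosen after their values were seen. Matching was by symbol, and 7 of 101 listed genes were not matched. Y-linked reads were counted as present above 10 expected counts of Ddx3y plus Kdm5d. A lowess trend (span 0.3) of log2 CPM over effective length gave the length correction. Each pair of libraries of a group differed by more than sampling noise. Chi-square per degree of freedom was 171 and 188 for WT 1 against WT 2 and WT 3, and 35.9 between WT 2 and WT 3. It was 138 and 156 for iKO 1 against iKO 2 and iKO 3, and 38.6 between iKO 2 and iKO 3.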

Additional observations from a re-analysis of the deposited data

How the results depend on the processing

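Among 17 alternatives, 6 of the 7 tested members kept their sign in each, the exception being Ttll5, which lay between -0.06 and 0.21 on the log2 scale. Ttll8 ran from 1.24 on log2(FPKM + 1), which understates low genes, to 5.97 without WT 1. The 2024 genes called over the whole table (edgeR) became 184 with a term for Y-linked reads, 140 in the 4 libraries with Y-linked reads and 493 (without WT 2) to 1815 (without WT 1) with a library left out, the fits without WT 3 (944) and iKO 3 (938) also falling below the 1.5-fold range. On log2(FPKM + 1) the calls split into 421 higher and 931 lower, against 962 and 1062, and with upper-quartile factors into 830 and 1248. The median of all genes was -0.12 on log2(FPKM + 1), -0.20 on log2(FPKM + 0.1) and -0.08 with upper-quartile factors. Of the members, the 2 called became 1 on log2(FPKM + 1), 1 on log2(FPKM + 0.1), 1 in the 4 libraries, and 1 to 2 with a library left out. It was 0 with the term for Y-linked reads, where 2 had an unadjusted p under 0.05. The 9 listed tubulin-code genes became 1 with that term, 1 in the 4 libraries and 1 to 7 with a library left out. DESeq2 called 13, and also Creld2 and Psmg4. Fits with fewer libraries or a further term have fewer degrees of freedom, and what lay behind the changes in the calls was not tested. The replicate block gave 1710 genes, 2 members and 9 listed genes, without Tpgs1, Pfdn2 and Ift20, and called Creld2 (1.10, adjusted p = 0.0295). Same-numbered libraries correlated at 0.201, 0.237 and 0.0394 in their deviations from the group means, so the numbers were not taken to pair the livers, and WT 2 correlated best with iKO 3 (0.358). Counts near 0 limit Ttll7, Ttll11 and the WT values of Ttll8.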

Other observations

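Ttll3 followed the order of genes of ciliated cells within each group, a pattern noticed after the values were seen and not tested. In the livers labelled iKO, Ttll3 (0.999, 1.22 and 2.25 CPM), Foxj1 (2.86, 4.72 and 11.3 CPM) and the sum of the cholangiocyte markers (101, 265 and 469 CPM) were lowest in iKO 1 and highest in iKO 3. In the WT livers, Ttll3 (0.718, 1.6 and 0.977 CPM), Foxj1 (2.02, 4.48 and 3.58 CPM) and the marker sum (174, 278 and 214 CPM) were lowest in WT 1 and highest in WT 2. Ttll8, the other glycylase, had the opposite order in the livers labelled iKO, with 8.66, 6.38 and 3.68 CPM. In the WT livers, at 0.425, 0 and 0.193 CPM, its order was also opposite, but it rests on 8, 0 and 4 expected counts. Such counts are too few to set an order. The WT order of Ttll3 rests on 13.52, 36.04 and 20.22 expected counts.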
